A study of Homo sapiens with 4 samples.

Results

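The HOX cluster genes encode homeodomain transcription factors, and their protein-coding rows were taken from the deposited gene counts of 4 bulk RNA libraries by matching the gene symbol to HOX, a cluster letter A to D and a paralog number. The match found 39 genes among 57820 gene rows, of which 11 belong to HOXA, 10 to HOXB, 9 to HOXC and 9 to HOXD. The libraries come from A549, an established human lung adenocarcinoma line. The parental A549 cells received no cytokine and gave 2 libraries. The other 2 are of TD cells, which the labels describe as A549 cells with a mesenchymal-like morphology kept under TGF-β (transforming growth factor beta) at 2 ng/ml, given every 3 days. Both grew in DMEM with 10% serum and gentamycin. Neither separate cultures for the replicate libraries nor repeated derivations of TD are mentioned in the labels. The p-values below therefore rest on the spread between replicate libraries, and that spread may be technical.

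The gene counts summed to 26729278 and 29381872 in the A549 libraries and to 28237849 and 44133836 in the TD libraries. Levels are given in CPM, meaning counts scaled by the TMM method to the same library size, which corrects for differences in library make-up. Where a gene has no counts in a library, a level of up to 3 counts, or 0.0738 to 0.108 CPM depending on the library, is still possible from counting error alone. The labelled states were checked against marker lists. All 6 tested of 7 epithelial markers were lower in TD, with CLDN4 at 0 counts in every library, and the list's sum moved from 15318 and 16119 CPM in A549 to 1729 and 2070 CPM in TD. All 6 mesenchymal markers were higher, from sums of 446 and 450 CPM to 2375 and 2692 CPM. Of all tested genes 21.4% were called lower and 21.6% higher. EPCAM, KRT19 and CLDN7 passed the expression filter of the test only through A549, and SNAI2 and SPARC only through TD. The counts of markers called are therefore partly shaped by the filter. Markers of other cell types were low throughout. Fibroblast markers summed to between 2.46 and 3.84 CPM over 8 genes, with COL1A2 at 0 in A549 and DCN at 0 in TD. Endothelial markers, all too low to test, summed to 0.431 and 0.135 CPM in A549 and to 0.758 and 0.713 CPM in TD over 5 genes. Leukocyte markers fell between 3.39 and 4.96 CPM over 7 genes, with CD3E at 0 in every library. Of 3 tested fibroblast markers 1 was called higher and 1 lower, and of 3 tested leukocyte markers 1 was called lower. Each of these called genes passed the filter only through the group where it is high. In bulk RNA, fewer cells of a type and less RNA per cell cannot be told apart.

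HOX genes lie in 4 chromosomal clusters that arose by duplication, so that a gene of the same paralog number in another cluster is its closest relative. In the embryo they are switched on in the order in which they stand, low numbers early and toward the head, high numbers late and toward the tail. Adult cells keep much of the resulting code, and the lung, a foregut derivative, is known for HOXA and HOXB genes of the low and middle numbers, with HOXA5 needed for normal lung development. The clusters are silenced by Polycomb complexes, which methylate histone H3 at lysine 27, and kept open by Trithorax-group enzymes. HOX proteins bind DNA with cofactors of the PBX and MEIS families, and retinoic acid induces the genes at the low-number end.

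Of the 39 genes, 26 passed the expression filter and were tested, and 13 were too low to test. A call required an adjusted p under 0.05 in edgeR's quasi-likelihood test, with Benjamini-Hochberg adjustment over all 17785 genes tested. HOXB3, HOXB9, HOXD10 and HOXD11 were higher in TD, which is 4 of 26 against 21.6% of all tested genes. HOXA3, HOXA4, HOXA5, HOXC10 and HOXC13 were lower, which is 5 of 26 against 21.4% of all tested genes. The other 17 had no call. In either direction 9 of 26 (34.6%) were called, no larger a share than the 43.0% of all tested genes. The log2 changes of TD over A549 ran from -2.51 for HOXC10 to 2.03 for HOXD10, with a median of -0.15 beside -0.04 over all tested genes. Of the 9 called genes 7 changed by at least 2-fold. The share of all called genes that did so was not taken, so this count describes no trait of HOX genes. Both TD libraries lay above both A549 libraries for 10 of the 26 genes and below them for 11, where 36.5% and 37.5% of all tested genes did so (74.0% in either direction).

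By cluster, HOXA had 0 of 9 tested genes called higher and 3 lower, HOXB had 2 of 9 higher and 0 lower, HOXC had 0 of 5 higher and 2 lower, and HOXD had 2 of 3 higher and 0 lower, beside 21.6% higher and 21.4% lower of all tested genes. The 2 of 9 in HOXB are near the share of all genes, and whether the clusters differ from each other was not tested. The median log2 change was -0.53 in HOXA, 0.25 in HOXB, 0.04 in HOXC and 1.67 in HOXD, beside -0.04 over all tested genes. In HOXA 8 of the 9 genes had a change below 0, and the share of all tested genes below 0 was not taken. HOXD10 and HOXD11 passed the expression filter only through TD, where they are high. The HOXD median and its 2 of 3 are therefore shaped by the filter and no support for a rise of the cluster. HOXA4 and HOXC10 likewise passed only through A549, where they are high.

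Summed over its members, HOXA stood at 43.4 and 36.9 CPM in A549 and at 24.7 and 24.4 CPM in TD. HOXB stood at 62.2 and 55.1 CPM in A549 and at 85.9 and 89.9 CPM in TD. HOXC summed to 11.8 and 10.9 CPM in A549 and to 8.24 and 9.30 CPM in TD, and HOXD to 6.50 and 6.40 CPM in A549 and to 9.79 and 10.5 CPM in TD. The groups did not overlap for any of these 4 sums, but neither did they for 74.0% of all single tested genes. Most of the HOXD sum was HOXD8, which had no call. Single genes also made much of the HOXB and HOXC moves. HOXB9 rose from a mean of 6.19 to 24.7 CPM, most of the rise in the HOXB mean sum from 58.6 to 87.9 CPM. HOXC13 fell from a mean of 3.95 to 0.928 CPM, more than the fall in the HOXC mean sum from 11.3 to 8.77 CPM. All members together summed to 124 and 109 CPM in A549 and to 129 and 134 CPM in TD, so the total moved less than its division among clusters. HOXA made up 35.0% and 33.8% of all HOX CPM in A549 and 19.2% and 18.2% in TD, while HOXB made up 50.2% and 50.4% in A549 and 66.8% and 67.1% in TD. These sums are not per length and are descriptions, since the genes were grouped with results known.

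**Figure D1:**
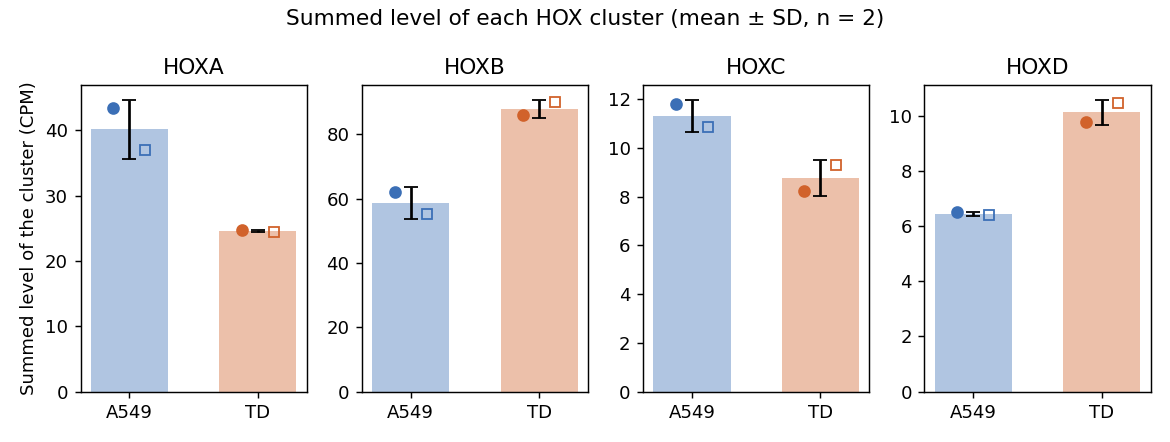
Summed CPM of all members of each HOX cluster in the A549 and TD libraries, with bars for the mean of 2 libraries, error bars for the SD, filled circles for replicate 1 and open squares for replicate 2. The vertical scale differs between panels. HOXA and HOXC sums lie lower in TD, with HOXA means of 40.1 and 24.6 CPM, and HOXB and HOXD sums lie higher, with HOXB means of 58.6 and 87.9 CPM. A single gene made the largest part of the move in HOXB (HOXB9) and in HOXC (HOXC13).

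By position, the genes with paralog numbers 9 to 13 summed to 24.3 and 23.7 CPM in A549 and to 38.8 and 42.5 CPM in TD. The groups did not overlap for this sum, nor for 74.0% of all single tested genes. Numbers 1 to 3 stood at 40.6 and 32.8 CPM in A549 and at 34.7 and 35.2 CPM in TD, and numbers 4 to 8 at 59.0 and 52.8 CPM in A549 and at 55.2 and 56.4 CPM in TD, so these sums overlapped between the groups. Within the posterior genes, HOXB9 and HOXB13 together stood at 7.76 and 7.89 CPM in A549 and at 24.5 and 27.8 CPM in TD. The posterior HOXC genes stood at 8.98 and 7.82 CPM in A549 and at 4.31 and 4.67 CPM in TD, the opposite direction. HOXB9 sets the direction of the posterior sum. Without it, a split chosen after the values were seen, the other posterior genes summed to 18.0 and 17.6 CPM in A549 and to 15.9 and 16.1 CPM in TD, lower in TD and again without overlap. Of the posterior genes tested, 3 of 9 were called higher and 2 lower, beside 21.6% and 21.4% of all tested genes. Of the central genes, 0 of 12 were called higher and 2 lower, and of the anterior genes 1 of 5 was called in each direction.

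Levels were compared between genes per kilobase of exon, using GENCODE 29 gene models. HOXB7 was the highest in both states, at 10.8 and 11.3 CPM per kb in A549 and 12.2 and 14.1 CPM per kb in TD. In A549 it was followed by HOXB6 at 5.44 and 3.88 CPM per kb and HOXA5 at 4.65 and 4.03 CPM per kb, whose ranges overlapped. In TD the second place went to HOXB9 at 8.91 and 10.2 CPM per kb, which held the fifth place in A549 at 2.41 and 2.39 CPM per kb. HOXB6 was next in TD at 6.07 and 5.11 CPM per kb, and then came HOXB3 at 2.63 and 2.69 and HOXD8 at 2.49 and 2.7 CPM per kb, which overlapped. HOXA5 ranked 13 in TD at 1.05 and 0.821 CPM per kb, and HOXC13 went from rank 11 to rank 22.

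**Figure D2:**
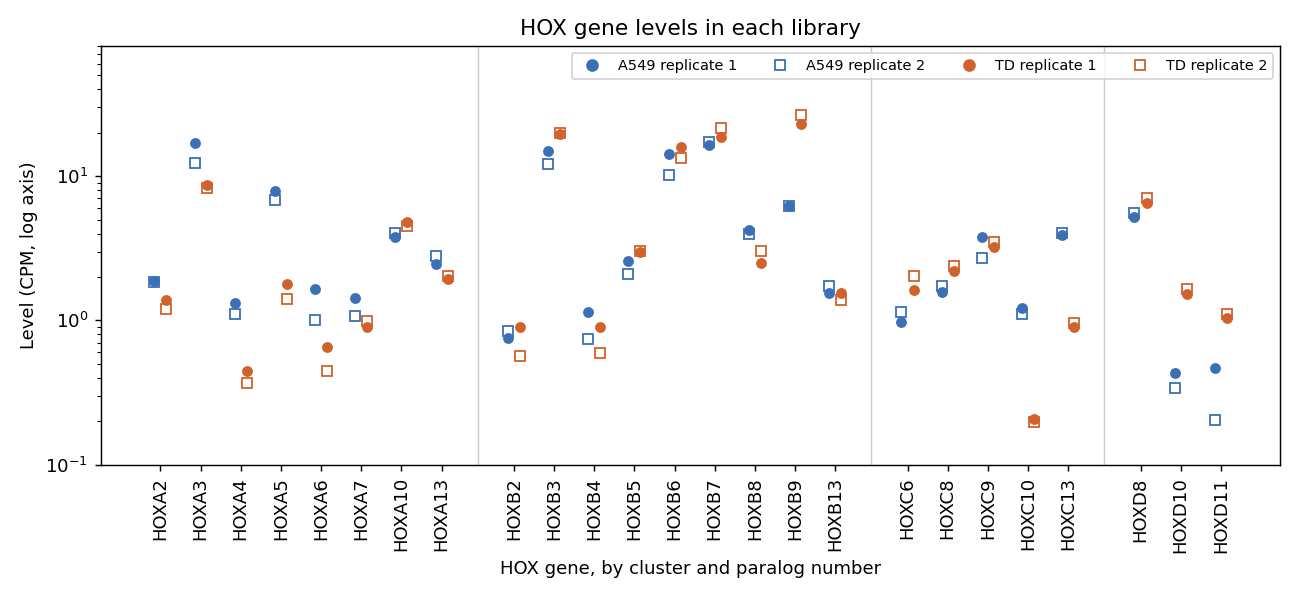
Level of the tested HOX genes reported here in CPM on a log axis, by cluster and paralog number, with A549 in blue, TD in orange, filled circles for replicate 1 and open squares for replicate 2. HOXB9 stands at 6.22 and 6.17 CPM in A549 and at 23.0 and 26.4 CPM in TD, and HOXA5, HOXC10 and HOXC13 lie lower in TD without overlap.

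In HOXA, the called falls were those of paralogs 3 to 5, which stand side by side. HOXA5, which is required for lung and airway development, stood at 7.94 and 6.88 CPM in A549 and at 1.79 and 1.40 CPM in TD. Both TD libraries were far below both A549 libraries. This is a 4.64-fold lower level (log2 change -2.22, SE 0.21, adjusted p = 0.0015 by edgeR). HOXA4, a middle-cluster gene beside it, stood at 1.33 and 1.11 CPM in A549 and at 0.448 and 0.369 CPM in TD (log2 change -1.58, SE 0.34, adjusted p = 0.0187 by edgeR). HOXA3, which patterns the thymus and parathyroid, stood at 17.1 and 12.3 CPM in A549 and at 8.68 and 8.31 CPM in TD. Its level was 1.73-fold lower (log2 change -0.79, SE 0.18, adjusted p = 0.0237 by edgeR). The HOXA5 call held in all 18 alternative settings. The HOXA4 call was lost with DESeq2 (adjusted p = 0.111) and without A549 replicate 1 (0.146) or replicate 2 (0.102). The HOXA3 call was lost without A549 replicate 1 (adjusted p = 0.0766 by edgeR).

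The 250 bases before the start of HOXA4, from RefSeq on GRCh38.p14, are shown as the only promoter of HOXA5 and HOXA4 in the sequence table used. They lie at chr7:27130758-27131007 on the minus strand, with every CpG in capitals because CpG-rich promoters are a hallmark of Polycomb-regulated genes. The stretch is 70% G and C and holds 26 CpG.
HOXA4: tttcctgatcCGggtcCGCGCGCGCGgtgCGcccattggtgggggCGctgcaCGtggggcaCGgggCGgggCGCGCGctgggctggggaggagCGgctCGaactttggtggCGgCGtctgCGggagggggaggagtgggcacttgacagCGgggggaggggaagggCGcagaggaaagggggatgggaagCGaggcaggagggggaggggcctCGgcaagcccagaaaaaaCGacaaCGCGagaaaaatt

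The other HOXA genes had no call. HOXA2, a branchial arch gene, stood at 1.87 and 1.85 CPM in A549 and at 1.38 and 1.20 CPM in TD (adjusted p = 0.15 by edgeR). HOXA6 stood at 1.65 and 1.01 CPM in A549 and at 0.655 and 0.443 CPM in TD, a log2 change of -1.28 with an SE of 0.42 (adjusted p = 0.0626 by edgeR), and passed the threshold in 8 of the 18 settings. For both genes the TD libraries lay below both A549 libraries. HOXA7 stood at 1.44 and 1.08 CPM in A549 and at 0.896 and 0.984 CPM in TD (adjusted p = 0.336 by edgeR). HOXA10, known for uterine patterning, was the only tested HOXA gene with a change above 0, from 3.77 and 4.01 CPM to 4.82 and 4.52 CPM (log2 change 0.26, SE 0.16, adjusted p = 0.267 by edgeR). HOXA13, a limb and urogenital gene, stood at 2.48 and 2.80 CPM in A549 and at 1.93 and 2.02 CPM in TD (adjusted p = 0.185 by edgeR). HOXA9 and HOXA11 were too low to test. HOXA9 held 3 and 13 counts in A549 and 4 and 12 in TD. HOXA11 held 2 and 6 counts in A549 and 0 in both TD libraries. The 95% exact counting interval of its TD over A549 ratio runs from 0 to 0.483, a level at least 2.07-fold lower.

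HOXB9, a gene of the thoracic body plan, had the strongest change in HOXB. It stood at 6.22 and 6.17 CPM in A549 (173 and 183 counts) and at 23.0 and 26.4 CPM in TD (667 and 1074 counts). The means were 6.19 ± 0.0334 and 24.7 ± 2.42 CPM (SD, n = 2), a 3.99-fold rise (log2 change 2.00, SE 0.11, adjusted p = 0.000276 by edgeR). The call held in all 18 alternative settings. HOXB3, a hindbrain and pharyngeal gene, rose from 15.0 and 12.2 CPM to 19.6 and 20.1 CPM, a smaller change of 0.54 on the log2 scale (SE 0.12, adjusted p = 0.0228 by edgeR). That call was lost with scaling by library totals (adjusted p = 0.0534) and without A549 replicate 2 (0.0759).

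None of the middle HOXB genes was called. HOXB7 stood at 16.5 and 17.3 CPM in A549 and at 18.7 and 21.5 CPM in TD (log2 change 0.25, SE 0.10, adjusted p = 0.117 by edgeR). HOXB6 stood at 14.2 and 10.1 CPM in A549 and at 15.8 and 13.3 CPM in TD, with overlapping groups (log2 change 0.26, SE 0.20, adjusted p = 0.346 by edgeR). HOXB5, a gene of lung and enteric development, stood at 2.59 and 2.09 CPM in A549 and at 2.96 and 3.05 CPM in TD (adjusted p = 0.245 by edgeR). HOXB8, the neighbour of HOXB9, stood at 4.24 and 3.94 CPM in A549 and at 2.52 and 3.05 CPM in TD, where both libraries were below those of A549. Its log2 change of -0.55 (SE 0.20) did not pass the test (adjusted p = 0.0810 by edgeR), though it did in 7 of the 18 settings. HOXB13, a prostate gene that lies apart from the rest of the cluster, stood at 1.54 and 1.72 CPM in A549 and at 1.55 and 1.38 CPM in TD (adjusted p = 0.647 by edgeR). HOXB2 and HOXB4 stayed under 1.2 CPM in every library and had no call, and HOXB1 had 0 counts in every library.

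Between HOXB9 and HOXB13 the cluster holds MIR196A1, the host row of the microRNA miR-196a, and the antisense RNA HOXB-AS4. HOXB-AS4 rose from 0.575 and 0.438 CPM in A549 to 3.07 and 2.21 CPM in TD, a 5.18-fold change (log2 2.37, SE 0.32, adjusted p = 0.00459 by edgeR). Without A549 replicate 2 its adjusted p was 0.0574. MIR196A1 held 1 and 7 counts in A549 and 22 and 27 in TD, with no overlap, and had no call (log2 change 2.33, SE 0.77, adjusted p = 0.0655 by edgeR). It passed the threshold in 9 of the 16 settings that tested it. Libraries of polyadenylated RNA hold precursor transcripts, so these counts are no measure of the mature microRNA. Without the strand setting of the counting, reads of overlapping transcripts on the 2 strands cannot be told apart.

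The mature sequence is shown because miR-196a is known to pair almost fully with HOXB8 RNA, the HOXB gene whose TD libraries lay below those of A549. This search was chosen after the values were seen. Capitals mark the seed, bases 2 to 8, in the RefSeq sequence, and miR-196b-5p, from the HOXA cluster, has the same seed.
hsa-miR-196a-5p: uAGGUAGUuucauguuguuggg
hsa-miR-196b-5p: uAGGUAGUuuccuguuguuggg
Among the GENCODE 29 transcripts of the 39 members, the best match to the reverse complement of miR-196a-5p was in HOXB8, where 21 of 22 bases match. Capitals mark matching bases, and the difference is A18G, counted from 1 at the 5′ end of the site, with the base of the full complement first.
HOXB8 site: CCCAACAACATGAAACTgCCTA
The next best member, HOXA7, matched 15 of 22 bases without gaps. An exact match to the seed occurred in 10 of the 39 members (25.6%), beside 3604 of 19669 genes with a protein-coding transcript (18.3%). The difference in the HOXB8 site lies within the seed, so HOXB8 is not among those 10 exact matches. It sets G opposite U, which can still pair in RNA but is not counted as a match here. A match is a description of letters and no sign that the site was used in these cells.

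In HOXC, the called genes were at the high-number end and both fell. HOXC10, a gene of hindlimb and lumbar identity, stood at 1.22 and 1.11 CPM in A549 (34 and 33 counts) and at 0.207 and 0.197 CPM in TD (6 and 8 counts). This is a 5.70-fold lower level (log2 change -2.51, SE 0.36, adjusted p = 0.00544 by edgeR). Without A549 replicate 1 or replicate 2 its adjusted p was 0.0724 or 0.0623. HOXC13, known for hair and nail keratins, stood at 3.88 and 4.01 CPM in A549 and at 0.896 and 0.959 CPM in TD. It was 4.24-fold lower (log2 change -2.08, SE 0.21, adjusted p = 0.00185 by edgeR), and the call held in all 18 alternative settings.

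The lower-numbered HOXC genes did not follow them. HOXC6 stood at 0.970 and 1.15 CPM in A549 and at 1.62 and 2.02 CPM in TD (log2 change 0.78, SE 0.28, adjusted p = 0.0782 by edgeR), and passed the threshold in 4 of the 18 settings. HOXC8, a brachial spinal cord gene, stood at 1.58 and 1.72 CPM in A549 and at 2.21 and 2.39 CPM in TD (adjusted p = 0.157 by edgeR). HOXC9, a thoracic spinal cord gene, had overlapping groups at 3.81 and 2.7 CPM in A549 and 3.20 and 3.49 CPM in TD, and the sign of its log2 change of 0.04 turned with scaling by library totals. HOXC4, HOXC5 and HOXC11 held at most 7 counts in any library and HOXC12 none. The models of HOXC4, HOXC5 and HOXC6 share sequence, so reads between them are uncertain.

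HOXD contributed few reads, and its called genes were HOXD10 and HOXD11, neighbours that pattern the limb and, for HOXD11, the kidney. HOXD10 stood at 0.431 and 0.337 CPM in A549 (12 and 10 counts) and at 1.52 and 1.65 CPM in TD (44 and 67 counts). This is a 4.10-fold rise (log2 change 2.03, SE 0.32, adjusted p = 0.00694 by edgeR). HOXD11 stood at 0.467 and 0.202 CPM in A549 (13 and 6 counts) and at 1.03 and 1.11 CPM in TD (30 and 45 counts), a 3.19-fold rise (log2 change 1.67, SE 0.49, adjusted p = 0.0460 by edgeR). HOXD9, beside HOXD10, was too low to test. It held 5 and 1 counts in A549 and 16 and 14 in TD, a ratio of 4.13 per library size with a 95% exact counting interval of 1.69 to 12.1. All 3 of these neighbours had more CPM in each TD library than in either A549 library, as did 36.5% of all tested genes. HOXD10 and HOXD11 passed the filter only through TD, so their agreement is no added support. HOXD8 stood at 5.17 and 5.53 CPM in A549 and at 6.55 and 7.11 CPM in TD and had no call (log2 change 0.35, SE 0.14, adjusted p = 0.111 by edgeR). The HOXD10 call was lost without A549 replicate 1 (adjusted p = 0.0525 by edgeR) or replicate 2 (0.0643). HOXD11 lost its call without A549 replicate 1 (0.069) or 2 (0.174), with library totals (0.0615) and with DESeq2 (0.125).

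The promoters of HOXD10 and HOXD11, the neighbouring HOXD genes called higher, are shown to set their letters beside each other. Both are 250 bases before a RefSeq start on GRCh38.p14, on the plus strand, with CpG in capitals. HOXD10 lies at chr2:176116528-176116777 and HOXD11 at chr2:176107030-176107279.
HOXD10: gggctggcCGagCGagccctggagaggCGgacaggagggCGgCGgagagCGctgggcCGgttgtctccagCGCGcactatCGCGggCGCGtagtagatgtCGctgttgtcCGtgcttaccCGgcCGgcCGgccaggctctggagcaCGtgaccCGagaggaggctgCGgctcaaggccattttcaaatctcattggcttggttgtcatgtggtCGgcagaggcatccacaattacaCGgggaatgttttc
HOXD11: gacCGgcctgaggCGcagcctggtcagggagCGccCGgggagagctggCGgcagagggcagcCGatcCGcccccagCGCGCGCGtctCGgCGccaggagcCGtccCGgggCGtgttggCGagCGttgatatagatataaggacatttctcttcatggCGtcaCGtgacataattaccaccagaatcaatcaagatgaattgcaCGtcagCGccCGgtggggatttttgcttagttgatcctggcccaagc
Each holds 23 CpG, with 64% and 61.6% G and C, beside a median of 11 CpG over the 35116 promoter windows of the table and of 19 CpG over its 27 HOX windows from 20 genes. Both strands were searched for CAGACA and GTCTAGAC, words bound by SMAD proteins, for CACCTG, an E-box word bound by SNAI and ZEB factors, and for TATAAA. None of these words occurs in the windows of HOXA4, HOXD10 or HOXD11. Over the 27 HOX windows, CAGACA occurred in 4 (14.8%, beside 13.6% of all windows), GTCTAGAC in 0 (0.182% of all), CACCTG in 1 (3.70%, beside 17.5%) and TATAAA in 5 (18.5%, beside 10.7%). Some genes, HOXA3 most of all, add several windows to these shares and to the median, and HOXC4 and HOXC5 have the same window, counted for each. The absence of a word says only that these letters are not there.

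Called paralogs of the same number stood on opposite sides in groups 3 and 10. In group 10, HOXD10 was higher, HOXC10 lower and HOXA10 not called. HOXD10 passed the expression filter only through TD and HOXC10 only through A549. Their opposite calls are therefore shaped by the filter and no support for paralogs moving apart. In group 3, HOXB3 was higher and HOXA3 lower, and in group 9 HOXB9 was higher while HOXC9 had no call (log2 change 0.04, SE 0.24, adjusted p = 0.900 by edgeR). In group 13, HOXC13 was lower, and HOXA13 and HOXB13 had log2 changes of -0.42 and -0.16 without a call. In group 5, HOXA5 was lower and HOXB5 had a log2 change of 0.36 without a call.

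**Figure D3:**
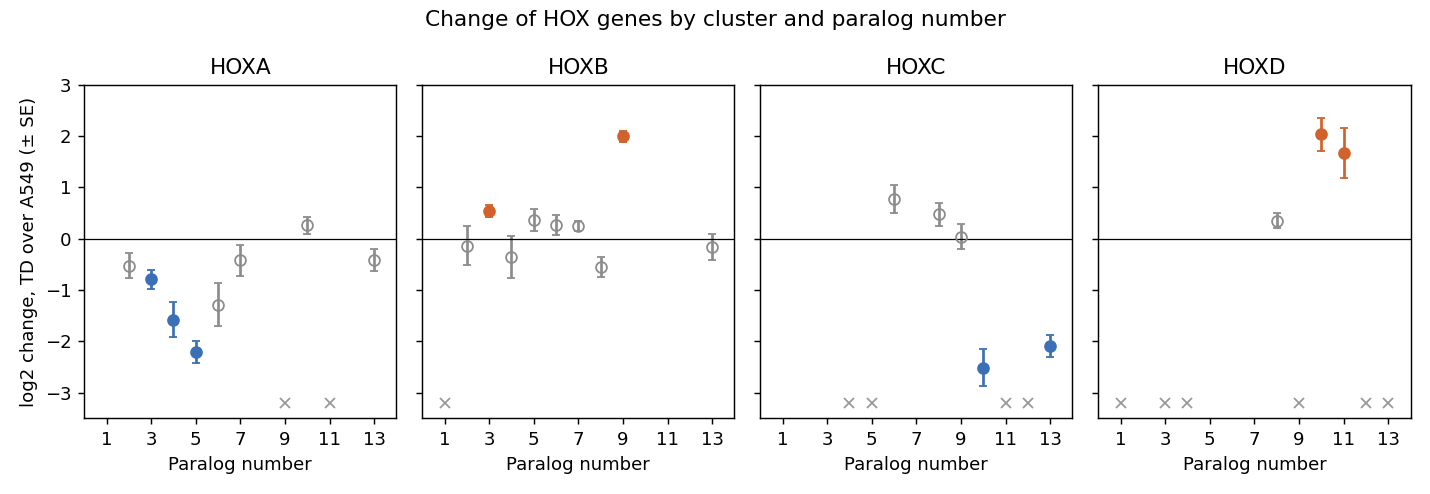
log2 change of TD over A549 for the HOX genes reported here by paralog number, in 1 panel per cluster, with error bars for the SE. Filled orange points were called higher, filled blue points lower, open grey points had no call, and crosses at the bottom mark genes too low to test. The blue points sit at HOXA3 to HOXA5 and at HOXC10 and HOXC13, and the orange points at HOXB3, HOXB9, HOXD10 and HOXD11.

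Of the 13 untested members, 4 had no count in any library (HOXB1, HOXC12, HOXD4 and HOXD13). Besides those described above, HOXC4 held 1 and 0 counts in A549 and 0 and 2 in TD, HOXC5 held 6 and 5 in A549 and 3 and 7 in TD, and HOXC11 held 2 and 0 in A549 and 0 and 1 in TD. HOXD1 held 6 and 9 counts in A549 and 4 and 7 in TD. HOXD3 had 1 count in 1 A549 library, and HOXD12 had 3 counts in 1 TD library. No comparison was made for these genes.

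The clusters also carry noncoding RNAs, several of which are known to act on nearby HOX genes. Of 23 such rows 9 were tested, with 1 called higher and 3 lower, beside 21.6% and 21.4% of all tested genes, and a median log2 change of 0.17. HOXA-AS2, which runs antisense across HOXA3 and HOXA4, stood at 20.3 and 22.2 CPM in A549 and at 5.62 and 4.94 CPM in TD. It was 4.03-fold lower (log2 change -2.01, SE 0.12, adjusted p = 0.000322 by edgeR). HOXA-AS3, which runs antisense across HOXA4 to HOXA7, stood at 1.83 and 1.89 CPM in A549 and at 0.586 and 0.541 CPM in TD (log2 change -1.72, SE 0.27, adjusted p = 0.00726 by edgeR). Both overlap called genes of that stretch in GENCODE 29, and reads of overlapping genes on opposite strands are uncertain here. HAGLR, a noncoding RNA at the low-number end of HOXD, fell from 3.59 and 3.24 CPM to 1.45 and 1.57 CPM (log2 change -1.17, SE 0.21, adjusted p = 0.0110 by edgeR). The HOXA-AS3 and HAGLR calls were lost without A549 replicate 1 (adjusted p = 0.0662 and 0.0767 by edgeR) or replicate 2 (0.0702 and 0.0584). HOTAIRM1, at the low-number end of HOXA, stood at 4.02 and 3.17 CPM in A549 and at 5.41 and 5.12 CPM in TD without a call (log2 change 0.55, SE 0.19, adjusted p = 0.0788 by edgeR). HOTAIR, which recruits Polycomb from the HOXC cluster, had 0 counts in every library, and HOTTIP, which acts on the posterior HOXA genes, held 3 and 9 counts in A549 and 1 in each TD library.

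**Figure D4:**
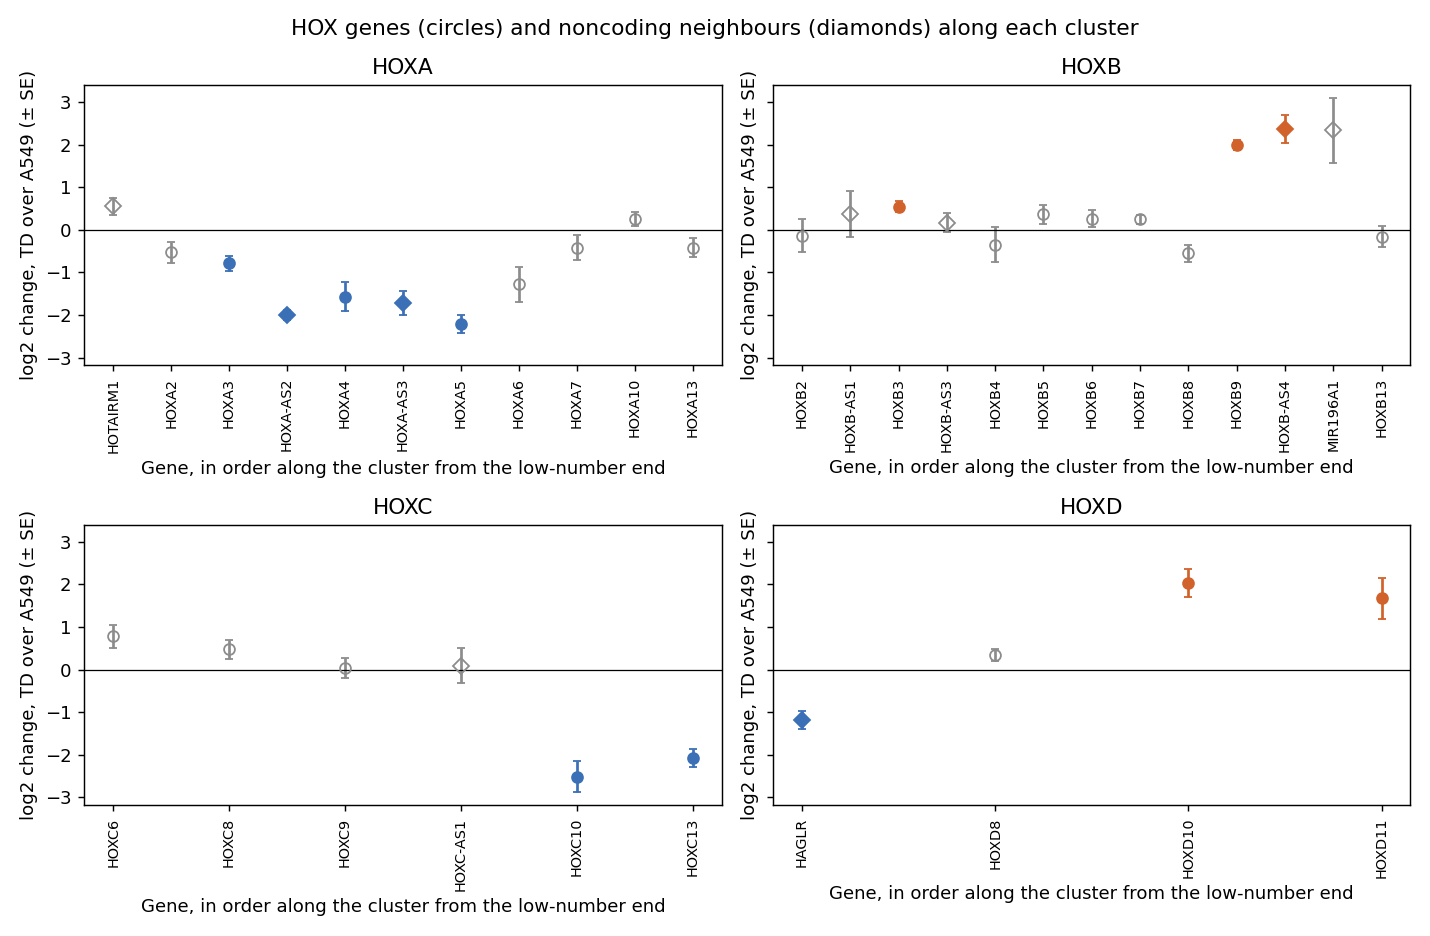
log2 change of TD over A549 for the HOX genes reported here (circles) and noncoding neighbours (diamonds) in their order along each cluster, with error bars for the SE. Filled orange was called higher, filled blue lower and open grey had no call. In HOXA the noncoding HOXA-AS2 and HOXA-AS3 at -2.01 and -1.72 sit among the lower genes HOXA3, HOXA4 and HOXA5, and in HOXB the noncoding HOXB-AS4 at 2.37 lies next to HOXB9 at 2.00.

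Genes that border the clusters were listed to show whether changes ran past the cluster ends. Of 17 tested flanking genes 5 were higher and 5 lower, beside 21.6% and 21.4% of all tested genes, with a median log2 change of 0.02. TTLL6, a tubulin-modifying enzyme gene beyond HOXB13, stood at 2.80 and 2.73 CPM in A549 and at 0.482 and 0.492 CPM in TD (log2 change -2.50, SE 0.25, adjusted p = 0.00174 by edgeR), opposite to HOXB9. On the HOXD side, MTX2, a mitochondrial outer membrane protein, fell from 76.0 and 74.3 CPM to 42.1 and 44.1 CPM, and LNPK, an endoplasmic reticulum protein, rose from 32.5 and 34.4 CPM to 48.1 and 50.4 CPM (log2 changes -0.80 and 0.56, adjusted p = 0.00123 and 0.00486 by edgeR). CBX5, a heterochromatin protein on the HOXC side, rose from 171 and 172 CPM to 277 and 293 CPM (log2 change 0.73, adjusted p = 0.00199 by edgeR). EVX1, the homeobox gene next to HOXA13, had 0 counts in every library.

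Among the cofactors with which HOX proteins bind DNA, 2 of 8 tested genes were higher and 3 lower, beside 21.6% and 21.4% of all tested genes, with a median log2 change of 0.15. PBX3 stood at 5.03 and 5.97 CPM in A549 and at 46.5 and 52.2 CPM in TD, an 8.96-fold rise (log2 change 3.16, SE 0.13, adjusted p = 0.000106 by edgeR). PBX4 fell from 1.58 and 1.82 CPM to 0.172 and 0.197 CPM (log2 change -3.17, SE 0.34, adjusted p = 0.00212 by edgeR). PKNOX1, a MEIS-related partner of PBX, rose by 0.62 on the log2 scale (SE 0.11, adjusted p = 0.0101 by edgeR), with an adjusted p of 0.0587 without A549 replicate 2. MEIS1 stood at 3.77 and 3.84 CPM in A549 and at 3.96 and 4.30 CPM in TD (log2 change 0.12, SE 0.17, adjusted p = 0.614 by edgeR).

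Of 25 Polycomb genes tested, 9 were higher and 3 lower, beside 21.6% and 21.4% of all tested genes, with a median log2 change of 0.08. In either direction 48% were called, beside 43.0% of all tested genes. Whether the list differs from all genes was not tested. JARID2, which guides the H3K27 methylating complex to DNA, stood at 21.5 and 19.0 CPM in A549 and at 97.4 and 103 CPM in TD, a 4.95-fold rise (log2 change 2.31, SE 0.10, adjusted p = 0.000116 by edgeR). CBX2, a reader of that mark, rose from 1.62 and 1.01 CPM to 2.65 and 3.39 CPM (log2 change 1.20, SE 0.32, adjusted p = 0.0368 by edgeR). The CBX2 call was lost without A549 replicate 1 (adjusted p = 0.0626 by edgeR) or 2 (0.141). PCGF5 and PCGF1, subunits of variant Polycomb complexes, fell by 1.55 and 0.91 on the log2 scale (adjusted p = 0.0002 and 0.0024 by edgeR), PCGF5 from 94.4 and 97.7 CPM to 31.7 and 34.0 CPM. EZH2, the catalytic subunit, stood at 48.5 and 43.5 CPM in A549 and at 39.7 and 36.6 CPM in TD and had no call (log2 change -0.27, SE 0.09, adjusted p = 0.0724 by edgeR), though it passed in 6 of the 18 settings.

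On the activating side, 6 of 21 Trithorax and H3K27 demethylase genes were higher and 4 lower, beside 21.6% and 21.4% of all tested genes, with a median log2 change of 0.15. KDM6B, which removes H3K27 methylation, stood at 15.7 and 15.3 CPM in A549 and at 85.5 and 83.0 CPM in TD, a 5.42-fold rise (log2 change 2.44, SE 0.08, adjusted p = 5.82e-05 by edgeR). AFF4, a scaffold of the elongation complex, rose by 0.82 on the log2 scale (adjusted p = 0.00158 by edgeR). MLLT3, a reader in the same complex, fell from 60.4 and 68.0 CPM to 21.7 and 25.6 CPM (log2 change -1.44, SE 0.12, adjusted p = 0.000894 by edgeR). DOT1L, an H3 methyltransferase linked to active HOX genes, fell by 0.88 on the log2 scale (SE 0.15, adjusted p = 0.00893 by edgeR). KMT2A, the H3 methyltransferase that maintains HOX expression, rose from 7.94 and 8.22 CPM to 13.1 and 10.7 CPM (log2 change 0.55, SE 0.14, adjusted p = 0.0308 by edgeR). That call was lost with library totals (adjusted p = 0.0896) and without A549 replicate 1 (0.21) or 2 (0.169).

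In the retinoic acid pathway, 4 of 15 tested genes were higher and 7 lower, beside 21.6% and 21.4% of all tested genes, with a median log2 change of -0.31. STRA6, the cell-surface receptor for retinol-binding protein, stood at 19.6 and 15.8 CPM in A549 and at 107 and 113 CPM in TD (log2 change 2.63, SE 0.13, adjusted p = 0.000175 by edgeR). RXRB, a nuclear receptor partner, rose by 0.76 on the log2 scale (SE 0.14, adjusted p = 0.0107 by edgeR), with an adjusted p of 0.0625 without A549 replicate 2. DHRS3, which turns retinal back into retinol, fell from 47.4 and 45.4 CPM to 1.65 and 2.43 CPM (log2 change -4.48, SE 0.19, adjusted p = 0.000121 by edgeR). CYP26A1, which degrades retinoic acid, held 33 and 26 counts in A549 and 2 and 3 in TD (log2 change -3.77, SE 0.48, adjusted p = 0.00356 by edgeR). Without A549 replicate 1 the CYP26A1 call was lost (adjusted p = 0.0617 by edgeR). Among ParaHox genes and other upstream regulators 5 of 11 were tested, and 1 was called, beside 43.0% of all tested genes. This was GDF11, a TGF-β family ligand that sets trunk-to-tail HOX patterning, which rose from 5.71 and 6.40 CPM to 19.6 and 18.6 CPM (log2 change 1.65, SE 0.11, adjusted p = 0.000476 by edgeR).

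**Figure D5:**
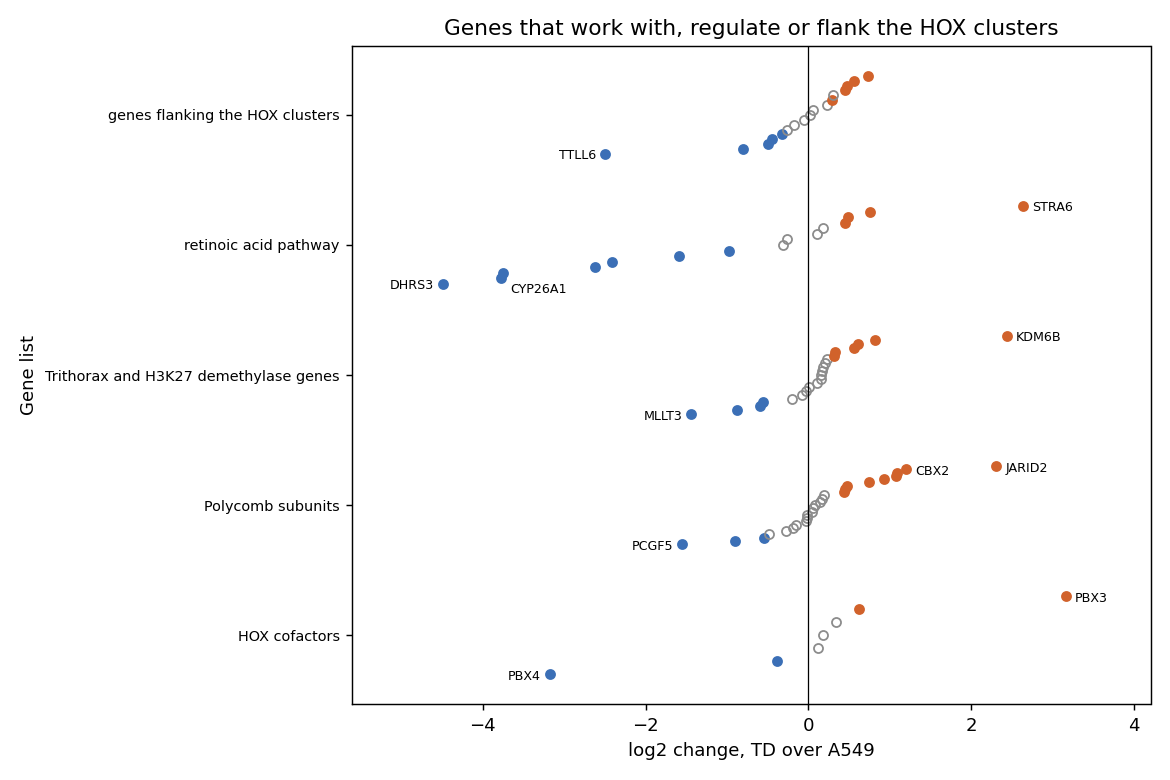
log2 change of TD over A549 for the tested and reported genes of 5 lists that work with, regulate or flank the HOX clusters, sorted within each list. Filled orange points were called higher, filled blue points lower, and open grey points had no call. PBX3 at 3.16, JARID2 at 2.31, KDM6B at 2.44 and STRA6 at 2.63 stand to the right, and PBX4 at -3.17, DHRS3 at -4.48 and CYP26A1 at -3.77 to the left.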

How the data were processed

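The deposited values are raw counts of reads per gene, 1 table for each library. FastQC 0.11.8, STAR 2.7.1a, HTSeq 0.11.2 and the build GRCh37 (hg19) are named per the submitters' processing notes. The kit is strand-specific, per the labels' protocols, and no source used here gives the strand setting of the counting or the annotation release. HTSeq's totals outside genes (6.12% to 7.79% of all counted reads), in more than 1 gene (2.34% to 2.56%) and with several alignments (8.08% to 9.22%) were left out. Symbols and gene types came from GENCODE 29, which matched 52338 of 57820 rows, all 39 HOX genes among them, and PCGF2 and PECAM1 were not matched. TD was compared with A549 by edgeR 4.0.16 in R 4.3.3 (quasi-likelihood test, TMM, a minimum count of 10, Benjamini-Hochberg adjustment, tested on simulated data). The SE comes from the log2 change and its F statistic. DESeq2 1.42.0 and limma-voom (limma 3.58.1) were alternatives. The members, the lists and the tests were chosen with earlier results of these data known. Tested members whose higher group averaged 1 CPM or more are given in full, and of each other list the 2 called genes with the largest change in each direction, plus HOTAIR, HOTTIP, HOTAIRM1, EZH2, KMT2A and MEIS1. Some genes that this rule covers are not reported here. Other names were chosen after their values were seen.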

Additional observations from a re-analysis of the deposited data

How the results depend on the processing

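Across 18 alternatives, 3 of the 9 called HOX genes (HOXA5, HOXB9 and HOXC13) held their call in each, 0 of 9 turned sign, and 7 of the 17 uncalled genes gained a call in at least 1. The 4 higher and 5 lower HOX calls became 2 higher with scaling by library totals (HOXB 1 higher and 1 lower, HOXD 1 higher), and HOXD had 1 higher with DESeq2. With pseudogenes left out or protein-coding genes only, 5 were higher and 7 lower, with 1 lower in HOXB and 1 higher in HOXC. With the replicate block 2 were higher (1 in HOXB, 1 in HOXD), and HOXA4, HOXB3, HOXD11, CBX2 and KMT2A had adjusted p of 0.0605, 0.0563, 0.101, 0.102 and 0.0741 by edgeR. The numbers share only a label: deviations of same-numbered libraries correlated at r = -0.0862 over 9511 genes, 1 value that pairs nothing. Leaving out each library, with pseudogenes kept or not, gave 2114 to 5329 genes higher and 2236 to 6140 lower, 1 to 7 HOX genes higher and 2 to 8 lower, 1 to 5 HOXA genes lower, 1 to 3 HOXB genes higher and 0 to 1 lower, 0 to 1 HOXC genes higher and 1 to 2 lower, and 0 to 3 HOXD genes higher. The fitted common variation was 20.1% in the main fit and 7.90% with pseudogenes left out. It was 34.1% and 34.0% without A549 replicates 1 and 2, where only the TD libraries give the spread. Without TD replicate 1 it was 7.08%, as it was without TD replicate 2. With pseudogenes left out, HOXD11 was the only called HOX gene to lose its call without an A549 library (adjusted p = 0.0562 by edgeR without A549 replicate 2). A library left alone in its group is taken to vary as the other group does. HOXC9 turned to -0.038 with library totals, -0.21 without A549 replicate 2 (also without pseudogenes) and -0.02 without TD replicate 2, and HOXB2 to 0.16 without TD replicate 2 (0.18 without pseudogenes). Over the fits without 1 library, HOXC9 ran from -0.21 to 0.275 and HOXB2 from -0.557 to 0.18. The cause of these changes was not tested. The median change of all genes was -0.12 with library totals, beside -0.04. At this depth 13 members were too low to test, and the called HOXA4, HOXC10, HOXD10 and HOXD11 held at most 37, 34, 67 and 45 counts in any library.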
